A study of Mus musculus with 16 samples.

Results

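Desmin and 5 proteins that build, anchor or protect its filament network were followed in maps of active chromatin from mouse heart muscle cells. The 6 genes were Des (desmin), Vim (vimentin), Synm (synemin), Plec (plectin), Dst (dystonin) and Cryab (alphaB-crystallin). They were chosen by name, as desmin, the intermediate filament proteins that can pair with it, its linkers and its chaperone, out of 11472 genes named in the peak lists. A peak belonged to a gene when the deposited annotation gave that gene as the one with the nearest start. In all, 63 peaks of the histone H3 lysine 27 acetylation mark (H3K27Ac) and 0 peaks of lamin A/C belonged to the 6 genes.

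The series holds 16 samples, of which 8 were chromatin precipitations with 1 peak list each and 8 were inputs, chromatin sequenced without precipitation. Antibodies to H3K27Ac, found at active promoters and enhancers, or to lamin A/C, proteins of the nuclear lamina, were used on adult cardiomyocytes freshly isolated by enzymatic perfusion of hearts from 3-month-old mice. For each antibody there were 4 groups, Des+/+ and Des-/- in each of the basal and swim conditions, where basal animals did not swim and swim animals had performed swimming exercise. Each group was 1 library made from the pooled chromatin of several mice, so no difference below has a replicate check and no test was made. The study's methods use the names Des+/+ and Des-/- for mice of 129SV background that carry a green fluorescent protein driven by the cardiac alpha myosin heavy chain promoter, while the labels name the Des genotype only. How the Des-/- allele was made is not given in the sources used here.

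Desmin is the muscle-specific intermediate filament protein. Its filaments surround the Z-discs, tie neighbouring myofibrils to each other, and reach the costameres, the intercalated discs, the mitochondria and the nucleus. Vimentin is a related filament protein of mesenchymal and endothelial cells, synemin co-assembles with desmin, plectin and dystonin are plakins that cross-link filaments to other structures, and alphaB-crystallin is a small heat shock protein that binds desmin. Acetylation of H3 lysine 27 is laid down on nucleosomes that flank active starts, so a strong promoter often shows a peak on either side of its start.

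In the basal state H3K27Ac gave 15757 peaks for Des+/+ and 16638 for Des-/-, and after swimming 11157 and 10407. No peak lower than 15 reads was listed. The median height of promoter peaks was between 22 and 26 reads in the 4 lists. Input heights under promoter peaks had a median of 6 reads in Des-/- swim against 3 reads in the other lists. Of 10 cardiomyocyte marker genes, 9 had a promoter peak in each list except Des-/- swim, where 7 did. Read totals are not in the lists, so heights were compared between lists after division by the median height ratio over all genes with a promoter peak in both, where a promoter peak lies within 3 kb of a start. Such a value is called a scaled ratio here.

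The gene Des (ENSMUSG00000026208.9) lies on chromosome 1 of the mouse build GRCm38, at chr1:75360329-75368579 on the plus strand. Its promoter and a part of the coding bases of its first exon are printed because the position of the listed peaks differed between the genotypes there. The 250 bases before the RefSeq start, chr1:75360042-75360291 on the plus strand, are shown first. Each CANNTG motif (the E box) and each GGGCGG motif (the GC box of Sp factors, here on the opposite strand as CCGCCC) is in capitals.
Des promoter: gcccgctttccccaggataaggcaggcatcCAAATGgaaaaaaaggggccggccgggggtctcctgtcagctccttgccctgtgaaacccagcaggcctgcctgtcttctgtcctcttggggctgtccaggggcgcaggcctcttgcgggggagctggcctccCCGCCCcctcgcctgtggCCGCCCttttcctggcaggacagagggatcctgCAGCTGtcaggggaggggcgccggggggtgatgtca
The next sequence is chr1:75360601-75360899 on the plus strand, in exon 1. Capitals mark chr1:75360616-75360884, the 269 bases that lay in a peak of both Des+/+ lists and in no peak of either Des-/- list.
Des exon 1: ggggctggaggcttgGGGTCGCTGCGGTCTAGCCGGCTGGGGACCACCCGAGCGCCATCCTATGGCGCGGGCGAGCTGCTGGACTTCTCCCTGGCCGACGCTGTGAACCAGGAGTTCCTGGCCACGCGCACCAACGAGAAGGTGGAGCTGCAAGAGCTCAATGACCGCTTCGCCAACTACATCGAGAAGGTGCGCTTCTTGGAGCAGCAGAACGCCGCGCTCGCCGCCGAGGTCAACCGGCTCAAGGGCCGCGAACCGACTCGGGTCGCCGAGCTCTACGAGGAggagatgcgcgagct

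The Des promoter held 2 E boxes and 2 GC boxes, and neither TATAAA, GAANNTTC, a CArG box nor a MEF2 box matched in this window. Over the 32851 promoters of the RefSeq table, cut to the same 250 bases and read on both strands, 66.2% held an E box, 32.7% a GC box, 12.4% TATAAA, 6.69% GAANNTTC, 1.47% a CArG box and 2.92% a MEF2 box. The E boxes and GC boxes do not overlap each other here. Its GC content was 67.2%, at percentile 86.8 of those promoters. A Des peak covered 184 of the 250 bases in Des+/+ swim and all of them in the other lists.

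Des carried 3 peaks in Des-/- basal and 2 in each of the other lists. In Des+/+ basal the upstream peak (chr1:75359614-75360301) was 29 reads high over an input of 4, and the downstream peak (chr1:75360358-75361885) was 30 reads high over an input of 2. In Des-/- basal the upstream peak (chr1:75358872-75360615) was 29 reads high and the downstream peak (chr1:75360885-75362453) 46 reads high, each over an input of 2. A further peak of that list, at chr1:75357176-75358122, was 16 reads high and ended 2207 bp before the start. It is annotated as distal intergenic and appeared in no other list. In Des+/+ swim the upstream peak (chr1:75359310-75360225) was 24 reads high over an input of 3, and the downstream peak (chr1:75360398-75361076) 19 reads high over an input of 2. In Des-/- swim the upstream peak (chr1:75359615-75360596) was 31 reads high over an input of 8, and the downstream peak (chr1:75360928-75362445) 37 reads high over an input of 3. The downstream peak was thus the higher in both Des-/- lists, while in Des+/+ the peaks were about level in the basal list and the upstream peak was the higher after swimming.

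The shape of the promoter differed between the genotypes in the same way in both conditions. Distances here are from the GENCODE start of Des, and the RefSeq start lies 37 bp before it. In the Des+/+ lists the unmarked stretch between the peaks contained the GENCODE start, from 27 bp before it to 28 bp after it in the basal list (56 bp) and from 103 bp before it to 68 bp after it in the swim list (172 bp). In the Des-/- lists the upstream peak ran across the start into exon 1, and the unmarked stretch lay inside the coding part of that exon, from 287 to 555 bp after the start in the basal list (269 bp) and from 268 to 598 bp in the swim list (331 bp). The edges of these Des-/- stretches differed by 19 bp on the left and by 43 bp on the right. Their common part, the capitals in the exon 1 sequence above, was covered over 269 bp in each Des+/+ list and over 0 bp in each Des-/- list. It made up 46.8% of the 575 coding bases of exon 1 and ran from codon 67 to codon 156 of desmin, in the part of the gene that encodes the head and the start of the rod. Its GC content of 66.5% was close to the 67.6% of the other coding bases of the exon. Joining peaks within 500 bp closes the gap between the upstream and downstream peaks in every list, so the shape rests on how the peaks were split.

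The summits moved with the gap, and for the downstream peak this direction follows from the gap itself. The Des-/- downstream peaks begin 556 bp (basal) and 599 bp (swim) after the start, beyond the Des+/+ summit of the same condition. In Des+/+ the summit of the downstream peak was 542 bp after the start in the basal list and 557 bp after it in the swim list, both in exon 1. In Des-/- it was 827 bp after the start in the basal list and 987 bp in the swim list, both in intron 1. The downstream summit was therefore 285 bp further from the start in Des-/- basal and 430 bp further in Des-/- swim than in Des+/+ of the same condition. The Des+/+ basal summit fell on a base inside the common stretch. Read depth inside the stretch is not in the lists, for neither the precipitated nor the input libraries. A lack of the mark, a change of the sequence in the allele and reads that could not be placed cannot be told apart at this stretch. The Des promoter carried the mark in every list, and the lists hold no measure of desmin RNA or protein with which the genotype labels could be checked.

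**Figure D1:**
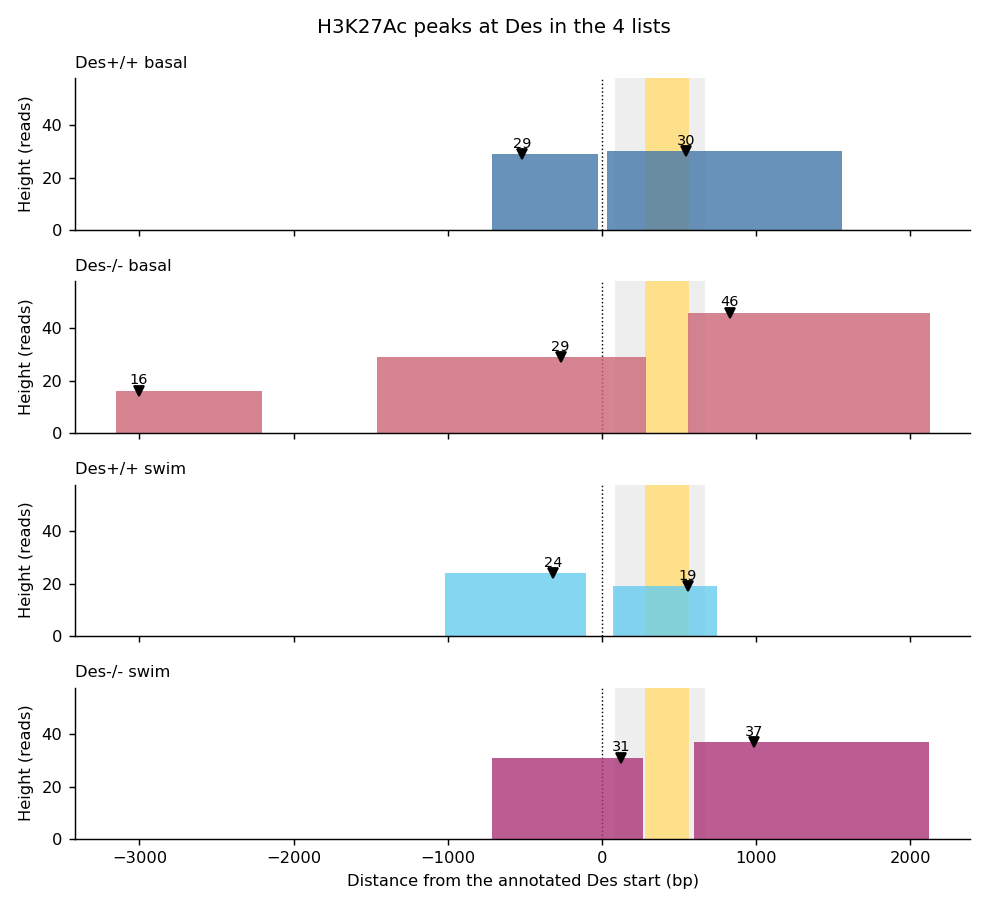
H3K27Ac peaks at Des in the 4 lists, drawn from their first to their last base as distance from the annotated start in bp (x axis), with height in reads (y axis) and a triangle at each summit. Grey marks the coding part of exon 1 and yellow the 269 bp that lie in a peak of both Des+/+ lists and in no peak of either Des-/- list, and the dotted line is the start.

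Stretches of this kind and length were rare. Of 10742 stretches covered in both Des+/+ lists, 4 (0.0372%) held at least 200 bp that lay between neighbouring peaks, at most 500 bp apart, of both Des-/- lists. They were at Des (269 bp), Pln (336 bp), Meox2 (262 bp) and Gm20750 (235 bp), and the stretch at Des alone among these 4 contained a Des+/+ summit. In the opposite direction 0 of 10229 stretches (0.0%, a count that allows up to 0.0293%) reached that length. Without the length limit the search gave 193 stretches in the direction of Des and 237 in the opposite one. Gaps common to both lists of a genotype numbered 608 for Des-/- and 668 for Des+/+. The difference between the directions thus holds only at the length limit. The form and the length limit of this search were set after the stretch at Des had been seen, so its place in the search is a description.

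In the basal lists the highest promoter peak of Des was 30 reads in Des+/+ and 46 in Des-/-, and in the swim lists 24 and 37. These heights stood at percentiles 62.3, 80.9, 59.2 and 78.8 of the promoter peaks of their own lists, in that order. Des-/- was the higher genotype in each condition, before and after scaling. In reads the swim list was the lower in each genotype. The scaled ratios of swim to basal were above 1, at 1.13 in Des+/+ and 1.10 in Des-/-. The Des+/+ value sets the upstream peak after swimming (24 reads) against the downstream basal peak (30 reads), so it compares different peaks. Between the Des+/+ lists the downstream peak went from 30 to 19 reads and the upstream peak from 29 to 24. The scaled ratio of Des-/- to Des+/+ was 1.42 in the basal lists, with a 95% interval of 0.875 to 2.32, and placed Des at percentile 95.2 of 8061 genes. After swimming it was 1.36, with an interval of 0.794 to 2.38, at percentile 92.4 of 5410 genes. The swim ratio and its interval set the downstream peak of Des-/- against the upstream peak of Des+/+, which are different peaks. Without scaling the ratios were 1.53 and 1.54. All intervals here cover counting error only and take overlapping reads as independent counts. A mark in more cells and more of the mark in each cell cannot be told apart from such heights.

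The peaks on either side of the gap were also compared one by one. The downstream peak had a scaled ratio of 1.42 in the basal lists (0.875 to 2.32) and of 1.72 in the swim lists (0.966 to 3.17). The upstream peak had a scaled ratio of 0.923 in the basal lists (0.532 to 1.60) and of 1.14 in the swim lists (0.649 to 2.03). Every one of these intervals includes 1, and those of the upstream and downstream peaks overlap, so the difference cannot be placed at either peak. The upstream summit too lay further downstream in Des-/-, by 247 bp in the basal lists and by 439 bp in the swim lists, where it was 121 bp after the start in exon 1. The split by peak was chosen after the heights had been seen. The genes whose 4 heights were most like those of Des, among 5260 genes with a promoter peak in all 4 lists, were Atp1b3, Rasa2 and Gjc1. Their summed absolute log2 differences from Des were 0.15, 0.21 and 0.24.

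The next gene downstream, Speg, encodes a striated muscle kinase, and its start lies 6.72 kb beyond the end of Des. The basal peak at the Speg start was 39 reads high in either genotype, and after swimming it was 46 reads in Des+/+ and 20 in Des-/-, where its input of 7 was the highest of the 4. The deposited annotation assigned this peak to Speg in Des+/+ swim and to Gm15179 in the other lists. Speg was picked after its values were seen.

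Vim (ENSMUSG00000026728.9, chr2:13573927-13582826, plus strand) had the tallest promoter peak of the 6 genes in Des-/- basal and in both swim lists. Before swimming its highest promoter peak was 34 reads in Des+/+ and 49 in Des-/-, and after swimming 31 and 44. The input heights under these peaks were 11, 4, 6 and 13 reads in the same order, and those of 11 and 13 were the largest under any peak of the 6 genes. As at Des, both Des-/- lists were above both Des+/+ lists in reads. The scaled ratio of Des-/- to Des+/+ was 1.33 in the basal lists (0.842 to 2.12, percentile 91.7) and 1.26 in the swim lists (0.775 to 2.06, percentile 85.1). With the input height subtracted the ratios became 1.78 and 1.24, so the basal value moved past 1.5-fold and the swim value hardly moved.

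At Vim a single Des-/- peak spanned the start in each list, at chr2:13571991-13576449 (4459 bp) in basal and chr2:13571961-13575488 (3528 bp) in swim. In Des+/+ the same region was split, into chr2:13572556-13575674 and chr2:13575763-13576190 in basal and into chr2:13572321-13573263 and chr2:13573274-13575724 in swim. The splits were short, a gap of 88 bp downstream of the start in the basal list and of 10 bp upstream of it in the swim list, and joining peaks within 500 bp gave 1 Vim peak in every list. The scaled ratio of the summed promoter width was 1.20 in the basal and 0.999 in the swim lists, so no difference in shape is drawn from these splits. Summed over its peaks, Vim in Des+/+ was covered over 3547 bp before swimming and 3394 bp after it. The profiles most like Vim were those of Fam117b, Tspyl1 and Rpl34, at summed log2 differences of 0.18, 0.21 and 0.23.

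Because Vim is active in endothelial cells and fibroblasts, the markers of other cell types are given beside it. All 8 endothelial markers had a promoter peak in each basal list and 6 did in each swim list, Cdh5 and Tek being without one. Their summed height was 340 reads for Des+/+ and 263 for Des-/- in the basal lists, and 176 and 198 in the swim lists. In reads this sum was thus lower in Des-/- in the basal lists and higher in the swim lists, while Vim was higher in Des-/- in both. The median scaled log2 ratio of Des-/- to Des+/+ over the endothelial markers compared was -0.48 in the basal and -0.22 in the swim lists. Of 8 fibroblast markers, 1 had a promoter peak in the basal list of Des+/+, 2 in that of Des-/- and 0 in each swim list. They were Pdgfra, at 16 reads for Des+/+ and 15 for Des-/-, and Tcf21, at 21 reads for Des-/- and with no peak for Des+/+. The other 6, Col1a1, Col1a2, Col3a1, Dcn, Postn and Lum, had none in any list. None of 6 leukocyte markers and none of 6 smooth muscle and pericyte markers had a promoter peak in any list. The part of endothelial or fibroblast chromatin in the Vim peak was not tested.

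Synm (ENSMUSG00000030554.16, chr7:67730160-67759742, minus strand) encodes synemin, which needs desmin or vimentin to form filaments. Its 250 bases before the RefSeq start, chr7:67759743-67759992 on the minus strand, are shown because they carried no peak in any of the 4 lists. Capitals mark the single E box.
Synm promoter: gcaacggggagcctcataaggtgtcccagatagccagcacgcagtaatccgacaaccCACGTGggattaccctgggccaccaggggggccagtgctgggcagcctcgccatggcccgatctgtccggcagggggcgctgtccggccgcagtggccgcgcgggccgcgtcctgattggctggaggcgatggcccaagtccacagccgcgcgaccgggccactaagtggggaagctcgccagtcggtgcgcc
This promoter had a GC content of 70.0% and 23 CpG dinucleotides, against 10 in the Des promoter. The one Synm peak, chr7:67740990-67741418 in Des+/+ basal, was 15 reads high over an input of 3 and lay 396 bp before an internal start. It was at the lowest height that was listed, and 0 Synm peaks were listed elsewhere. Of 1081 genes with a height between 13 and 17 reads in Des+/+ basal, 27.2% had no promoter peak in Des-/- basal and 79.1% had none in Des+/+ swim.

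Plec (ENSMUSG00000022565.15, chr15:76170974-76232574, minus strand) encodes plectin, which has many alternative first exons and anchors desmin to the Z-disc, the costamere, mitochondria and the nucleus. It had 3 basal peaks in Des+/+ and 6 in Des-/-, against 5 and 3 after swimming. When the peaks of the 4 lists were merged they formed 6 regions, of which 2 were present in every list. The taller of these, chr15:76197617-76200654, holds 4 of the annotated starts and was 44 reads high for Des+/+ and 46 for Des-/- before swimming, and 30 and 31 after it. The genotypes were level there, with scaled ratios of 0.965 in the basal lists (0.624 to 1.49) and 0.914 in the swim lists (0.535 to 1.56). The other, chr15:76205969-76208302, holds 3 starts and was 25, 23, 18 and 18 reads high in the same order, with scaled ratios of 0.849 (0.461 to 1.56) and 0.885 (0.434 to 1.80). The 4 remaining regions were 15 to 18 reads high, near the lowest height listed. All 4 were present in Des-/- basal and none in Des+/+ basal. Of these, 2 were also present in Des+/+ swim and none in Des-/- swim. Peli1, Sec63 and Ccser2 had the profiles most like that of Plec, at summed log2 differences of 0.03, 0.09 and 0.14.

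Dst (ENSMUSG00000026131.18, chr1:33908225-34308661, plus strand) is the longest of the 6 genes, at 400.4 kb, and its muscle and nerve isoforms of dystonin start at separate promoters. Before swimming it had 6 peaks in Des+/+ and 8 in Des-/-, and after swimming 6 and 4, in 9 merged regions. Regions at chr1:34010960-34012733 and chr1:34120221-34124434 were present in all 4 lists. The first, which contains a RefSeq promoter, was 23 reads high for Des+/+ and 32 for Des-/- in the basal lists, and 19 and 20 in the swim lists. The second was 29, 29, 24 and 27 reads high in the same order. The highest promoter peak of Dst came from the second region in every list except Des-/- basal, where it came from the first. Scaled ratios of Des-/- to Des+/+ were 1.28 (0.728 to 2.30) and 0.931 (0.472 to 1.84) in the first region, basal and swim, and 0.923 (0.532 to 1.60) and 0.995 (0.553 to 1.80) in the second. None of these intervals excludes 1. The second RefSeq promoter of Dst, chr1:34160010-34160259, had no peak in any list. Outside the shared regions, heights were between 15 and 21 reads. Mprip, Lrrc28 and Rack1 had the profiles most like Dst, at summed log2 differences of 0.16, 0.16 and 0.21.

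Cryab (ENSMUSG00000032060.10, chr9:50751325-50756636, plus strand) encodes alphaB-crystallin, which binds desmin and keeps it from aggregating. Among the basal lists it had 3 peaks for Des+/+ and 2 for Des-/-, and among the swim lists 1 and 0. Its highest promoter peak was 35 reads for Des+/+ and 26 for Des-/- in the basal lists, over an input of 2 each. After swimming it was 23 reads for Des+/+ over an input of 3, and none was listed for Des-/-. A second region, chr9:50751380-50752880, was 23 reads high for Des+/+ and 19 for Des-/- in the basal lists, and 15 for Des+/+ after swimming, where the peak was assigned to the neighbouring small heat shock gene Hspb2. It too had no peak in Des-/- swim. In the basal lists the scaled ratio of Des-/- to Des+/+ was 0.686 (0.396 to 1.17), at percentile 3.98. Cryab therefore lay on the opposite side of the median gene from Des and Vim. A peak lower than 15 reads is not listed, so no ratio is given for Des-/- swim. Of 1323 genes with a height of 21 to 25 reads in Des+/+ swim, 12.8% had no promoter peak in Des-/- swim. Of 1257 genes with a height of 24 to 28 reads in Des-/- basal, 38.3% had none in Des-/- swim. In that list Actc1 and Myl2, cardiomyocyte markers with a promoter peak in the other lists, were also without one, and the part of the library in the missing Cryab peak was not tested.

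**Figure D2:**
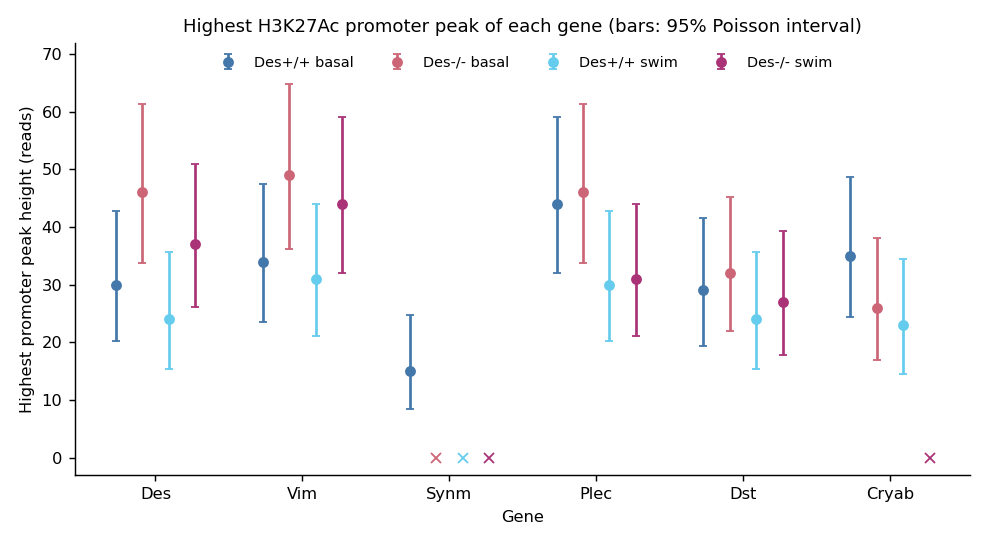
Highest H3K27Ac promoter peak of each gene in reads (y axis) by gene (x axis), 1 point per list with its 95% Poisson interval for counting error, and a cross at 0 where no promoter peak was listed. Des and Vim are higher in Des-/- than in Des+/+ in both conditions, Plec and Dst are close to level, Synm is listed in Des+/+ basal alone and Cryab is absent from Des-/- swim.

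Across the 6 genes, none was past 1.5-fold in the comparison of Des-/- with Des+/+ in the basal lists, where 5.87% of all genes tested were. In the swim lists the count was again 0, against 7.28% of all genes. The scaled ratios of the 5 members with a promoter peak in both basal lists ran from 0.686 at Cryab to 1.42 at Des, and those of the 4 members with one in both swim lists from 0.914 at Plec to 1.36 at Des. The median log2 value over these members was 0.03 in the basal lists and 0.16 in the swim lists, against 0 over all genes by construction. A promoter peak was listed in Des+/+ and not in Des-/- for 1 member in the basal lists, Synm, where this held for 6.05% of all genes, and for 1 member in the swim lists, Cryab, where it held for 14.5%. No member had a promoter peak in Des-/- and not in Des+/+, against 10.7% of all genes in the basal and 13.8% in the swim lists.

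**Figure D3:**
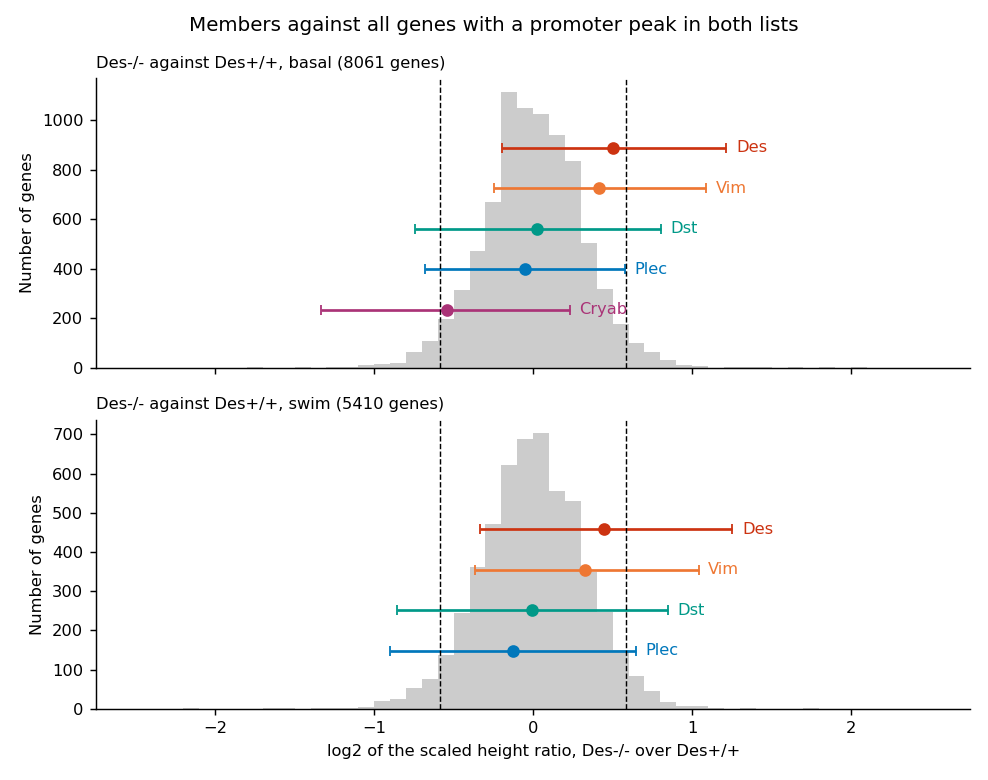
Scaled height ratio of Des-/- to Des+/+ on a log2 scale (x axis) for all genes with a promoter peak in both lists (grey, number of genes on the y axis), in the basal lists above and the swim lists below. Coloured points are the members with their 95% intervals, placed at arbitrary heights, and dashed lines mark 1.5-fold: no member is past either line, and Des is the furthest to the right in both panels.

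Swimming was compared with the basal state within each genotype, and these comparisons share their lists with those of the genotypes. None of the 6 genes was past 1.5-fold in Des+/+, where 6.91% of all genes were, and none in Des-/-, where 6.97% were. The scaled ratio of swim to basal at Des was 1.13 in Des+/+ (0.631 to 2.00) and 1.10 in Des-/- (0.692 to 1.73). As said above, the Des+/+ value compares different peaks of Des. At Vim it was 1.29 in Des+/+ (0.764 to 2.16) and 1.22 in Des-/- (0.796 to 1.88). The values at Plec were 0.961 and 0.919, and at Dst 1.17 and 1.15. Cryab had a value of 0.926 in Des+/+ (0.523 to 1.61). A promoter peak was listed in basal and not in swim at Synm in Des+/+, where 27.1% of all genes had one in the basal list only, and at Cryab in Des-/-, where 31.1% did. No member had a promoter peak in a swim list without one in the basal list of its genotype, against 3.13% of all genes in Des+/+ and 2.88% in Des-/-.

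Peaks were also paired by position, a peak being unpaired when it overlapped no peak of the other list by 1 bp. In the basal lists 4 of 17 member peaks of Des+/+ and 8 of 20 of Des-/- were unpaired, against 14.5% and 19.7% of all peaks. The 8 in Des-/- belonged to Plec (4), Dst (3) and Des (1) and were 15 to 18 reads high. In the swim lists 6 of 16 member peaks of Des+/+ and 1 of 10 of Des-/- were unpaired, against 27% and 22.2% of all peaks. The 6 in Des+/+ belonged to Dst (3), Plec (2) and Cryab (1). In Des+/+, 6 of 17 basal and 4 of 16 swim peaks were unpaired between the conditions, against 39.0% and 8.39% of all peaks. In Des-/-, 11 of 20 basal and 0 of 10 swim peaks were, against 44.8% and 6.28%. When only peaks of at least 20 reads were counted, the unpaired peaks left were the Cryab peak of Des+/+ swim in the genotype comparison and the Cryab peak of Des-/- basal in the comparison with swim.

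By deposited annotation, 49 of the 63 H3K27Ac peaks were in promoters, 12 in introns, 1 in an exon and 1 was distal intergenic. Of the 63, 56 lay within 3 kb of a start. Heights ran from 15 to 49 reads with a median of 20. The merged peaks made 22 regions, of which 6 were in all 4 lists (1 at Des, 1 at Vim, 2 at Plec and 2 at Dst) and 8 in a single list.

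**Figure D4:**
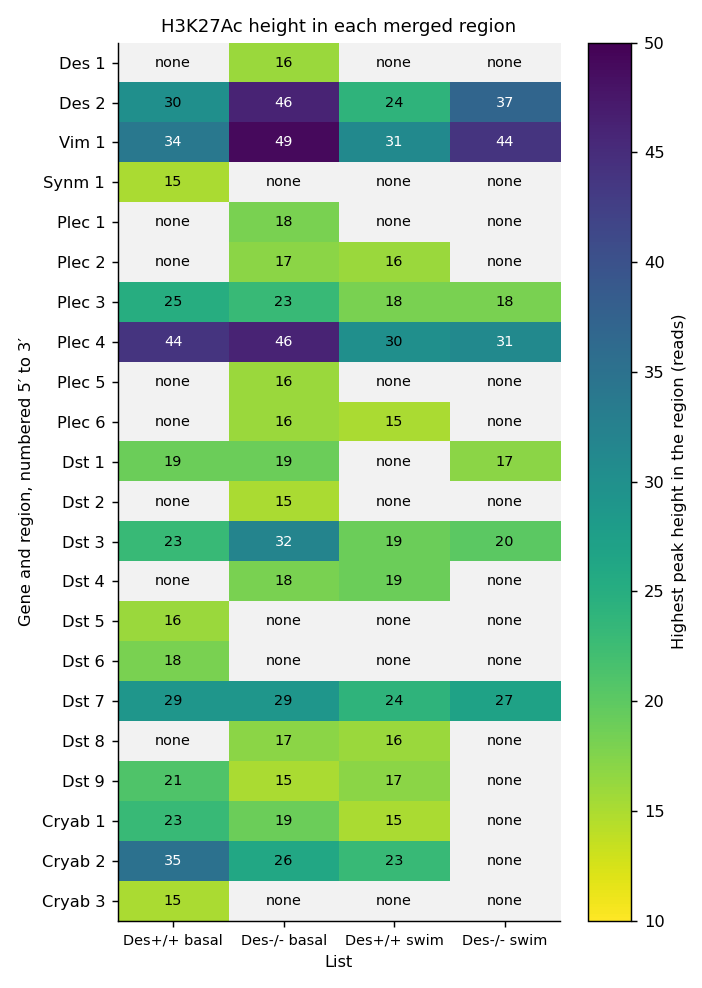
Highest H3K27Ac peak in reads (colour and number) in each of the 22 merged regions of the 6 genes (rows, numbered in the direction of transcription) and in each list (columns), with grey where no peak was listed. The regions present in all 4 lists are those with the tallest peaks of Des, Vim, Plec and Dst, while Cryab is empty in Des-/- swim.

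Other genes of the same network were counted from lists drawn up by role. Of 16 other intermediate filament genes, 3 had a promoter peak in each basal list and 1 in each swim list. That 1 was Lmna, the gene of lamin A/C, whose height was 76 reads for Des+/+ and 73 for Des-/- before swimming and 52 and 61 after it, with scaled genotype ratios of 0.887 and 1.04. The basal lists shared Lmna and Sync, the latter at 19 reads for Des+/+ and 15 for Des-/-. Nes had a promoter peak in Des+/+ basal only (16 reads), as did 6.05% of all genes between the basal lists. Lmnb1 had one in Des-/- basal only (19 reads), as did 10.7%. The keratin genes Krt8, Krt18 and Krt19, Gfap and the neurofilament genes had no promoter peak in any list. Of 7 plakin and desmosomal plaque genes, 3 were compared in the basal lists and 4 in the swim lists, and 1 was past 1.5-fold lower in Des-/- in each, against 2.95% and 3.92% of all genes. It was Dsp, the gene of desmoplakin, which fastens desmin to the desmosome, at 34 reads for Des+/+ and 22 for Des-/- in the basal lists and 26 and 18 in the swim lists, with scaled ratios of 0.597 and 0.612. Pkp2 had a promoter peak of 16 reads in Des+/+ basal and none in Des-/- basal, as did 6.05% of all genes. It was 15 reads high in each swim list.

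Of 8 small heat shock and co-chaperone genes, 4 were compared in the basal lists and none was past 1.5-fold. In the swim lists 5 were compared and 2 were past 1.5-fold lower in Des-/-, against 3.92% of all genes, with a median log2 value of -0.55. These were Hspb6 and Hspb7, each 30 reads high for Des+/+ and 20 for Des-/- after swimming. Before swimming Hspb6 had a promoter peak of 27 reads for Des-/- and none for Des+/+, the opposite direction. Such a peak in Des-/- basal only was listed for 10.7% of all genes. Hspb7 was 40 reads high for Des+/+ and 38 for Des-/- before swimming. Bag3, the co-chaperone of the Z-disc, was 94, 116, 86 and 92 reads high over the 4 lists, with scaled genotype ratios of 1.14 and 0.946.

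Of 14 genes of the costamere, the Z-disc and the nuclear anchors, 11 were compared in the basal lists, where 2 were past 1.5-fold lower in Des-/- (2.95% of all genes) and the median log2 value was -0.12. Dmd and Syne2 had promoter peaks of 17 and 20 reads in Des-/- basal and none in Des+/+ basal, as did 10.7% of all genes. In the swim lists 5 were compared, 4 were past 1.5-fold lower in Des-/- (3.92% of all genes) and the median was -0.61. A further 4, namely Actn2 of the Z-disc and Syne1, Syne3 and Sun1 of the nuclear envelope bridge, had a promoter peak in Des+/+ swim and none in Des-/- swim, as did 14.5% of all genes. The single gene past 2-fold between genotypes was Sun2, whose protein spans the inner nuclear membrane, with 27 reads for Des+/+ and 19 for Des-/- before swimming, and 58 and 15 after it. Its scaled genotype ratio after swimming was 0.229 (0.120 to 0.409). The peak of 58 reads lay over an input of 8 and stood at another place in the gene than the peaks of the other lists. The ratio and its interval therefore compare different places of Sun2. The Sun2 peak of Des+/+ swim that overlaps the peak of 15 reads in Des-/- swim was 20 reads high. Sun2 was also among the 2 genes past 1.5-fold lower in the basal lists, where its peaks of 27 and 19 reads did not overlap either. The Des+/+ basal peak that overlaps the Des-/- peak of 19 reads was 18 reads high. The 10 cardiomyocyte markers moved with this group after swimming, since 3 of the 7 compared were past 1.5-fold lower in Des-/- and 2 had no promoter peak there. The part of the Des-/- swim library in these values was not tested. Des, at 1.36 in the same comparison, was on the other side of the median gene. The genes named in these lists, other than Sun2, were picked after their values were seen. No intervals are given for them, so the counting error of their ratios is not shown.

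No lamin A/C peak belonged to any of the 6 genes or overlapped a gene body. The basal lists of this antibody held 188 peaks for Des+/+ and 831 for Des-/-, and the swim lists 635 and 536, so that a count of 0 allows a share of up to 1.60%, 0.361%, 0.472% and 0.560% of the peaks. The nearest lamin A/C peak to any of the 6 genes was 110.1 kb from Cryab, in Des-/- swim, and was 8 reads high, the lowest height listed for that antibody. Contacts of these genes with lamin A/C were not detectable at this depth.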

How the data were processed

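H3K27Ac and lamin A/C precipitations of cardiomyocytes were analysed from the deposited peak lists, 1 for each of the 8 groups. The 8 inputs enter only as the input height of each peak. Per the submitters' processing notes, Bowtie2 2.4.4, SAMtools 1.13 and ChIPseeker 1.36.0 were used with mouse build GRCm38 (mm10). Peak height and input height are coverage signals in reads, deposited by the authors and not scaled for depth. The distance to the start is a score in bp deposited by the authors. Deposited fold changes and p-values were not used. Alignment places a read of repeated sequence at 1 of its copies, and the peak caller lists no H3K27Ac peak under 15 reads, so a missing peak is not a height of 0.

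Promoter peaks lay within 3 kb of a start, and the highest of each gene was compared between lists after division by the median ratio over all genes with one in both. The scaling factors were 1.08 and 1.13 for genotype (basal, swim) and 0.709 and 0.733 for swim (Des+/+, Des-/-). A call was 1.5-fold. Ratio intervals are exact binomial and height intervals exact Poisson intervals at 95%. For 0 counts, 3 divided by the total is the share allowed. Gene models came from GENCODE vM21 and sequences from RefSeq on GRCm38, whose promoter table held 4 of the 6 genes. Cryab and Plec had no entry there. The scaling and the 1.5-fold call were tested on simulated heights that were larger than those listed, and the intervals were not tested. Python 3.11.15, pandas 2.3.3, numpy 2.4.6, scipy 1.17.1 and matplotlib 3.10.9 were used.

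The text names the 6 members, their neighbours, the 3 genes with the nearest profile for each member with a peak in all 4 lists, and network genes past 2-fold between genotypes. Other named genes are said to be picked afterwards. The members, gene lists and search rules were chosen with earlier results of these data known. Alternatives covered assignment, peak height, joining, promoter distance, input, scaling, width, overlap and fold.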

Additional observations from a re-analysis of the deposited data

How the results depend on the processing

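No paired analysis was possible because each group had 1 library and the labels carry no replicate numbers, and no library could be left out for the same reason. Counting only peaks of at least 20 reads left 11, 9, 8 and 6 member peaks in Des+/+ basal, Des-/- basal, Des+/+ swim and Des-/- swim, and joining peaks within 500 bp left 11 in Des+/+ basal. The smaller counts follow from how these settings are made. With that height limit, unpaired member peaks fell to 0 and 0 in the basal genotype comparison, 1 and 0 in the swim one, 0 and 0 between conditions in Des+/+, and 1 in Des-/- basal. Requiring an overlap of 50% of the shorter peak gave 2 unpaired peaks in Des-/- swim. Without scaling, 1 member was past 1.5-fold in each genotype comparison (Des, at 1.53 and 1.54) and 1 in swim against basal of Des+/+ (Cryab, at 0.657). Summed promoter width in place of height gave 1.83 for Des in the basal and 1.51 in the swim lists, 1.70 for Plec in the basal lists, and 1.72 for Plec and 0.225 for Cryab in swim against basal of Des+/+. The height minus the input gave 1.62 for Des in the swim lists, 1.78 for Vim and 0.660 for Cryab in the basal lists, and 1.60 for Vim in swim against basal of Des+/+. The cause was not tested. The ratios of Des between genotypes stayed above 1 under every setting of scaling, distance, input, width and assignment, from 1.41 to 1.83 in the basal and 1.36 to 1.62 in the swim lists, while the upstream peak alone gave 0.923 in the basal lists. The stretch at Des was 269 bp with peaks of every assignment and with peaks of at least 20 reads. Neither setting could move it, because the Des-/- peaks beside it were assigned to Des and at least 29 reads high. Joining peaks within 500 bp closed it in both Des-/- lists, and closed the shorter gaps at the start in both Des+/+ lists. Lamin A/C peaks at the members stayed at 0 when gene bodies were searched. The scaling over genes of at least 30 reads, the heights matched by region and the split of the Des promoter were added after the data had been seen.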
